A study of Rattus norvegicus with 6 samples.

Results

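The circadian clock genes Arntl, Clock, Per1, Per2, Per3, Cry1, Cry2, Nr1d1, Nr1d2 and Dbp were examined in the spinal cord of rats with bone cancer pain (BCP). They were the 10 rows, of 30957 in the gene table, whose gene name was one of these symbols. They were chosen by name, with earlier results of these data known. RNA-seq had been performed on the ipsilateral side of the lumbar enlargement of adult female Wistar rats on day 14, with 3 BCP and 3 sham-operated libraries. BCP rats carried living Walker 256 cells, a rat breast carcinoma line, in the medullary cavity of the left tibia, whereas sham-operated rats had received Walker 256 cells killed by heat at the same site. Both groups underwent the same puncture of the bone, were kept on a regular cycle of light and dark, and were deeply anaesthetised before the cord was removed and its meninges stripped. The hour at which each rat was killed is not given in the sources used here. Levels of clock genes move with the hour. Any difference in hour between the groups cannot be told apart from an effect of BCP, and none was tested.

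The mammalian clock is a loop of transcription that runs in most cells of the body, including glia and neurons of the cord. ARNTL (also called BMAL1) and CLOCK bind E-boxes as a pair and switch on the Per and Cry genes, whose proteins return to the nucleus and block that pair. The same pair drives Nr1d1 and Nr1d2, which encode REV-ERB alpha and REV-ERB beta, repressors of Arntl that bind ROR response elements. It also drives Dbp, which encodes a transcription factor acting on D-boxes. In rodent tissues the transcripts of Arntl peak at the opposite part of the day from those of Dbp, Nr1d1 and the Per genes, so that Arntl set against Dbp within a sample moves strongly with the hour, while Clock transcripts vary little. Per1 is in addition switched on by glucocorticoids and by CREB.

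Promoter sequences were available for 9 of the 10 genes in RefSeq (build GRCr8), with 11 start sites. The 250 bases before each start were searched for letters of the elements through which the loop closes. Those of Arntl, Per2, Cry2 and Nr1d1 (the more upstream of its starts) are shown because each holds such letters, which are in capitals. Every sequence runs 5′ to 3′ on the strand of the gene and ends at the base before the start.
Arntl, chr1:176766078-176766327, plus strand: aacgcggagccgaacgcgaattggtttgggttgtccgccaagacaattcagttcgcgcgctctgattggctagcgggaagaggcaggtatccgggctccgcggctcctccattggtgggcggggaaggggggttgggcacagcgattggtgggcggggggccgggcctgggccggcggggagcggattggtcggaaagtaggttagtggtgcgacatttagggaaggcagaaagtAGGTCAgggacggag
Per2, chr9:99496994-99497243, minus strand: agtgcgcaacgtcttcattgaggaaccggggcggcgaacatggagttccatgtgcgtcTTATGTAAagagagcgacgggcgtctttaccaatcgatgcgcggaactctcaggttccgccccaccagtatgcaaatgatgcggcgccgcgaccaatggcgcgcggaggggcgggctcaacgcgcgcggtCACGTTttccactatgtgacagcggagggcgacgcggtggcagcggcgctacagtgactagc
Cry2, chr3:98860438-98860687, minus strand: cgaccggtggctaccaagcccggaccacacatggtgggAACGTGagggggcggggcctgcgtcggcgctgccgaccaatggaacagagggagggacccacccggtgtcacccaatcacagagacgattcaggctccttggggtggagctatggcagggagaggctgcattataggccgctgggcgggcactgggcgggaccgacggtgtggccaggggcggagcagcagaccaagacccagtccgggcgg
Nr1d1, chr10:84231813-84232062, minus strand: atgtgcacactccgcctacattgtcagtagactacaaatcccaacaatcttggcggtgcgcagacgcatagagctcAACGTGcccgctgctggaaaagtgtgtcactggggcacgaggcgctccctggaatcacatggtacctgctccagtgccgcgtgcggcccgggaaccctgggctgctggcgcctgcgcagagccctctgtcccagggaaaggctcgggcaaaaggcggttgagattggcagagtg

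In Arntl, the capitals mark the core letters AGGTCA of the ROR element at 15 to 10 bases before the start. In Per2 they mark a D-box, TTATGTAA, at 192 to 185 bases and an E-box variant, CACGTT, at 62 to 57 bases. The E-box variant lies on the other strand, as AACGTG, at 212 to 207 bases in Cry2 and at 174 to 169 bases in Nr1d1. The second start of Nr1d1 has the E-box CACGTG at 191 to 186 bases, and Nr1d2 has AGGTCA at 187 to 182 bases. Per1, Per3, Dbp and Clock held none of these letters, nor the CREB element TGACGTCA, in the same windows, so that 5 of the 9 genes held at least 1 of the 5 motifs. On either strand, CACGTG occurs in 5.59% of 33469 rat promoter windows of this length, CACGTT in 4.07%, TTATGTAA in 0.828%, AGGTCA in 14.1% and TGACGTCA in 1.59%. No match overlapped another in these windows. The share of windows with any of the 5 motifs was not computed, so 5 of 9 genes has no background here. Nr1d1 and Clock also had more than 1 window searched. These matches are letters in a window and not measured binding sites.

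The total of gene counts per library was between 11779485 and 15004290, and each clock gene had from 217 to 1720 counts in a library. Counts were turned into CPM, a share of the library's total scaled with edgeR's TMM factors, which were between 0.982 and 1.02. The groups were compared by quasi-likelihood F-tests in edgeR, with p-values adjusted over the 14908 genes tested. An adjusted p under 0.05 is called lower or higher here. Of all genes tested, 27.9% were called, 12.1% as lower in BCP and 15.8% as higher, and the median log2 fold change of all genes was -0.01. The labels number the libraries as replicates without naming the animals, so the p-values measure the spread between these libraries. In bulk cord, fewer cells of a type and less RNA per cell cannot be told apart.

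Of the 10 clock genes 6 were down-regulated in BCP, none was up-regulated and 4 did not pass the test, where 27.9% of all genes passed in either direction and 12.1% as lower. The 6 were the Per and Cry genes, Per1, Per2, Per3, Cry1 and Cry2, together with the output gene Dbp. The count depended on the analysis: 2 of the 10 passed with DESeq2, 3 with edgeR's likelihood ratio test, 2 with library size scaling, 1 with limma on FPKM and 3 without sham replicate 1, sham replicate 3, BCP replicate 1 or BCP replicate 3. Arntl, Clock, Nr1d1 and Nr1d2 did not pass. No clock gene changed more than 2-fold, which with the same adjusted p held for 6.45% of all genes. The median log2 fold change was -0.21 for the 10 genes. All 3 BCP libraries lay below all 3 sham libraries for 5 genes, Per1, Per2, Per3, Cry2 and Dbp, where the background of such genes was 19.8%, and above them for 1 gene, Arntl, where it was 21.7%. By an unadjusted p under 0.05 from edgeR, 7 of the 10 passed, the seventh being Clock.

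**Figure D1:**
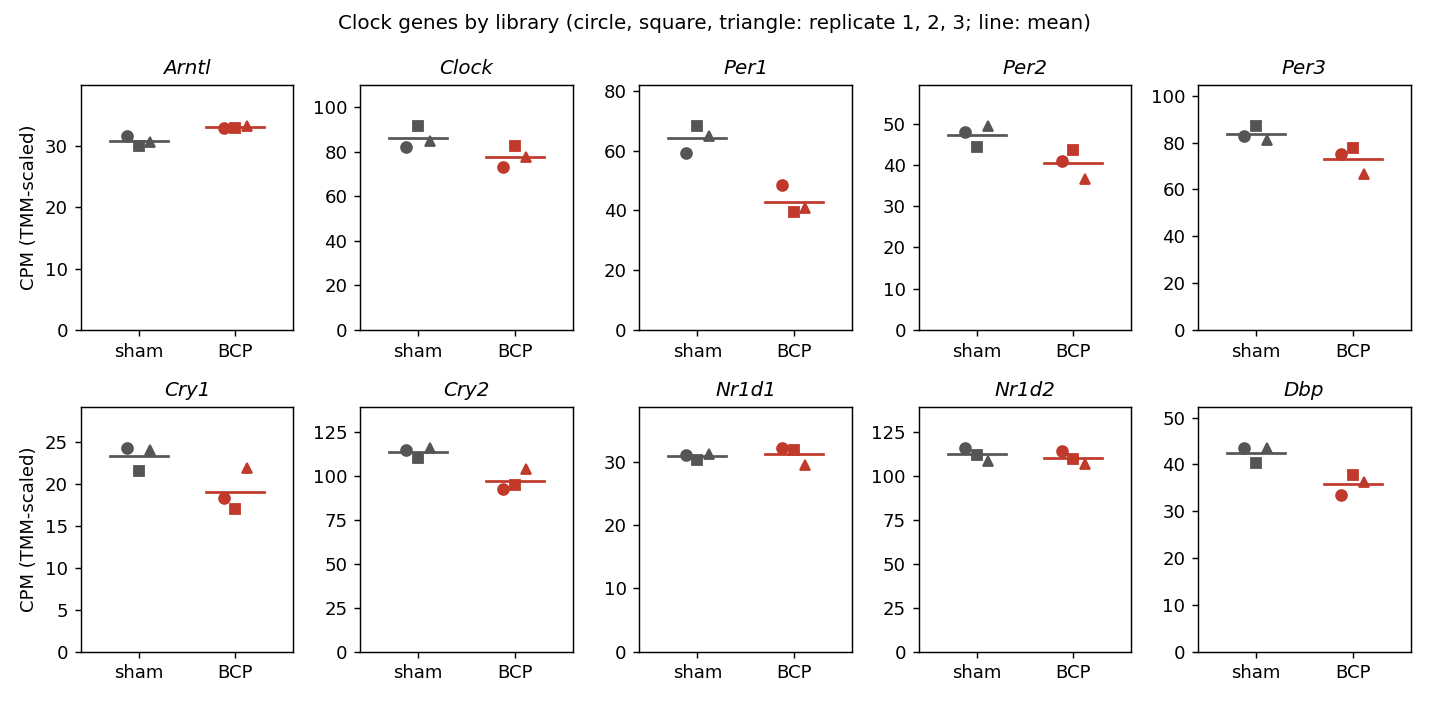
TMM-scaled CPM (vertical axes, each from 0) of the 10 clock genes in the 3 sham and the 3 BCP libraries, with circle, square and triangle for replicates 1, 2 and 3 and a line at the group mean. Per1 shows the widest gap, 59.1 to 68.4 CPM in sham against 39.6 to 48.4 CPM in BCP, while the libraries of Nr1d1 and Nr1d2 overlap between the groups.

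Per1, a repressor of the loop and its most readily induced member, fell the most. It had 59.1, 68.4 and 64.9 CPM in sham replicates 1, 2 and 3 and 48.4, 39.6 and 40.7 CPM in BCP replicates 1, 2 and 3. Every BCP library was below every sham library, and BCP replicate 1 was the nearest to sham. The means were 64.1 ± 4.68 (SD, n = 3) and 42.9 ± 4.82 CPM (SD, n = 3), a change of -33.2% and a log2 fold change of -0.58 (SE 0.08, edgeR adjusted p = 1.97e-05). Only 1.48% of the genes tested had as low a fold change. Per1 passed in all 14 alternative analyses, with log2 fold changes of -0.67 to -0.50. The row is ENSRNOG00000007387, at chr10:55687050-55695994 in Rnor_6.0.

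Per2, the repressor closest to Per1, changed less. Its libraries had 48.1, 44.4 and 49.5 CPM in sham and 40.9, 43.7 and 36.7 CPM in BCP. The groups did not overlap, but sham replicate 2 and BCP replicate 2 were within 1 CPM of each other. The log2 fold change was -0.23 (SE 0.08, edgeR adjusted p = 0.0405), from 47.3 ± 2.68 to 40.4 ± 3.57 CPM (SD, n = 3 each). The call was lost without sham replicate 1 (adjusted p = 0.102), sham replicate 3 (0.149), BCP replicate 1 (0.0669) or BCP replicate 3 (0.210). In deposited FPKM the groups overlapped. Per2 (ENSRNOG00000020254) is at chr9:98555169-98597359.

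Per3, the PER protein that the loop can most easily do without, had 82.8, 87.2 and 81.3 CPM in sham and 75.1, 77.5 and 66.6 CPM in BCP. The groups were separate, with BCP replicate 3 the lowest library. The means were 83.8 ± 3.05 and 73.1 ± 5.69 CPM (SD, n = 3 each) and the log2 fold change was -0.20 (SE 0.06, edgeR adjusted p = 0.0247). Without sham replicate 2 the adjusted p was 0.105 and without BCP replicate 3 it was 0.160. Per3 (ENSRNOG00000018413) is at chr5:168086998-168123395.

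Cry2, the most abundant clock gene by FPKM, fell by 0.23 on the log2 scale (SE 0.06, edgeR adjusted p = 0.00393). CRY proteins are the part of the repressor complex that blocks CLOCK and ARNTL directly. Cry2 had 114.8, 110.0 and 116.2 CPM in sham and 92.7, 94.7 and 103.7 CPM in BCP, with no overlap. The means were 113.7 ± 3.26 and 97.0 ± 5.90 CPM (SD, n = 3 each). It passed in 13 of 14 alternatives and in all 6 that left out a library. Cry2 (ENSRNOG00000007478) is at chr3:81314149-81344110.

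Cry1, the paralogue of Cry2 and the clock gene with the lowest mean FPKM, had the highest adjusted p of the 6 called genes. Its libraries had 24.4, 21.7 and 24.1 CPM in sham and 18.4, 17.0 and 22.0 CPM in BCP. BCP replicate 3 lay above sham replicate 2, so the groups overlapped. The log2 fold change was -0.29 (SE 0.11, edgeR adjusted p = 0.0468), from 23.4 ± 1.5 to 19.1 ± 2.56 CPM (SD, n = 3 each). The call was lost without sham replicate 1 (adjusted p = 0.132), sham replicate 3 (0.123), BCP replicate 1 (0.125) or BCP replicate 2 (0.232). Cry1 (ENSRNOG00000006622) is at chr7:24534615-24634097.

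Dbp, the output of the loop with the widest daily swing in many tissues, had 43.6, 40.4 and 43.5 CPM in sham and 33.6, 37.8 and 36.4 CPM in BCP. The groups did not overlap. The means were 42.5 ± 1.83 and 35.9 ± 2.15 CPM (SD, n = 3 each), with a log2 fold change of -0.24 (SE 0.08, edgeR adjusted p = 0.0253). Leaving out sham replicate 1 (adjusted p = 0.0811), sham replicate 3 (0.0847), BCP replicate 1 (0.106) or BCP replicate 3 (0.0568) ended the call. Dbp (ENSRNOG00000021027) is at chr1:101687855-101692846.

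The activating arm did not pass the test. Arntl had 31.7, 30.0 and 30.7 CPM in sham and 32.9, 33.0 and 33.3 CPM in BCP, so every BCP library was above every sham library by a small margin. Its means were 30.8 ± 0.854 and 33.1 ± 0.221 CPM (SD, n = 3 each), and its log2 fold change of 0.10 (SE 0.08, edgeR adjusted p = 0.379) did not pass in any of the 14 alternatives. Arntl (ENSRNOG00000014448) is at chr1:178039063-178137465.

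Clock had 82.1, 91.8 and 84.8 CPM in sham and 73.2, 82.5 and 77.8 CPM in BCP, with overlap between BCP replicate 2 and sham replicate 1. Its log2 fold change was -0.15 (SE 0.06, edgeR adjusted p = 0.0872). Clock passed only with upper quartile scaling, at an adjusted p of 0.0307. Clock (ENSRNOG00000002175) is at chr14:34446616-34502218.

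The genes of the REV-ERB repressors did not pass the test either, and their estimates were the closest to 0. Nr1d1 had 31.0, 30.4 and 31.3 CPM in sham and 32.3, 31.9 and 29.5 CPM in BCP, with a log2 fold change of 0.02 (SE 0.08, edgeR adjusted p = 0.910) that turned negative with upper quartile scaling. Nr1d2 had 116.4, 112.0 and 108.9 CPM in sham and 114.2, 109.8 and 107.1 CPM in BCP, with a log2 fold change of -0.03 (SE 0.05, edgeR adjusted p = 0.752) that turned positive with library size scaling and with FPKM. Both sets of libraries overlapped, and neither gene passed in any alternative. Nr1d1 (ENSRNOG00000009329) is at chr10:86683875-86690815 and Nr1d2 (ENSRNOG00000046912) at chr15:8730871-8757165.

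**Figure D2:**
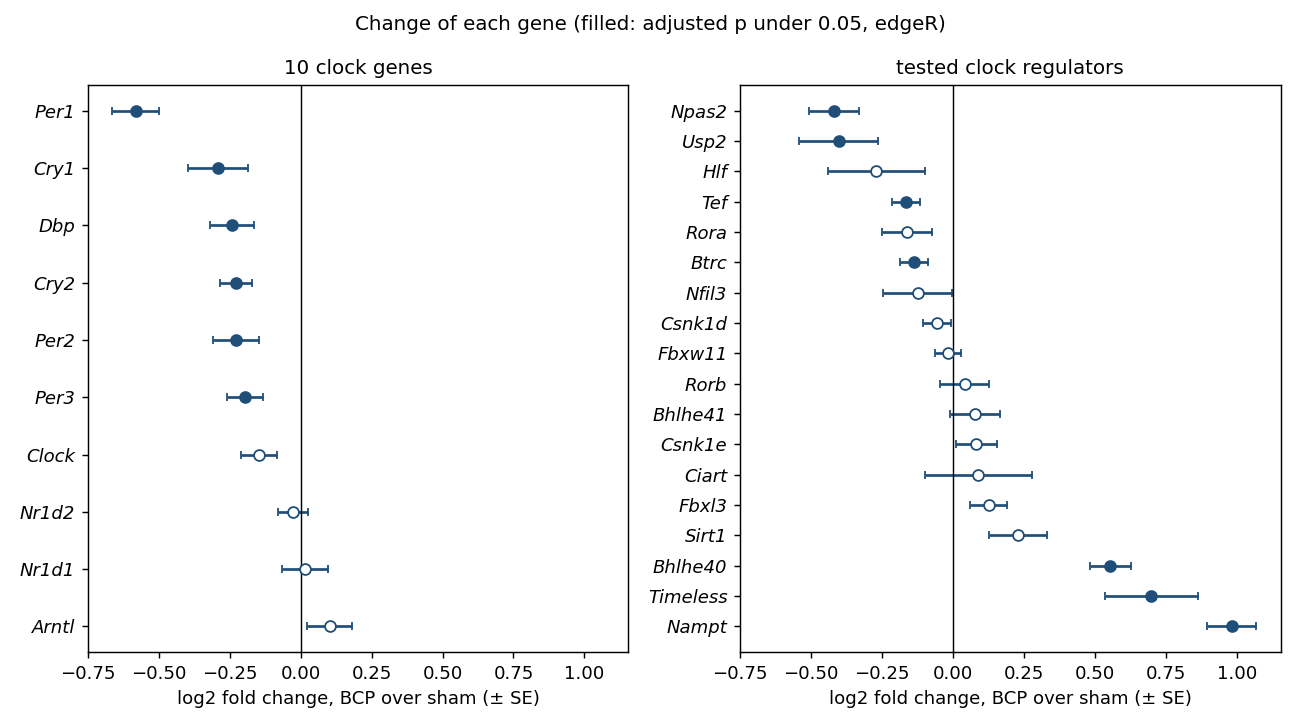
Log2 fold change of BCP over sham (horizontal axis) with its SE, for the 10 clock genes and for tested genes of a list of clock regulators, with filled circles where the edgeR adjusted p was under 0.05. The clock genes run from -0.58 for Per1 to 0.10 for Arntl, and the regulators shown from -0.42 for Npas2 to 0.98 for Nampt.

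Differences between clock genes within a library do not depend on the scaling between libraries. Arntl minus Dbp was -0.46, -0.42 and -0.50 on the log2 CPM scale in sham replicates 1 to 3 and -0.03, -0.19 and -0.12 in BCP replicates 1 to 3. The groups were separate, with means of -0.46 ± 0.04 and -0.12 ± 0.08 (SD, n = 3 each), and BCP was 0.34 higher. These differences are built from genes already tested and are given without a test.

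Arntl minus Per2 was -0.60, -0.56 and -0.69 in sham and -0.31, -0.40 and -0.14 in BCP, again without overlap, and 0.33 higher in BCP. Arntl minus Nr1d1 was 0.03, -0.02 and -0.03 in sham and 0.03, 0.05 and 0.17 in BCP, where the groups overlapped and the difference was 0.09, or 0.04 without BCP replicate 3. Nr1d1 is like Dbp a direct target of the activating pair. The Arntl difference between groups was smaller against Nr1d1 than against Dbp and Per2. This restates the values of the single genes given above and was not tested. Per1 minus Per2 was 0.30, 0.62 and 0.39 in sham and 0.24, -0.14 and 0.15 in BCP, a difference between groups of -0.35, with every BCP library below every sham library. In sham the spread of Per1 minus Per2 was 0.17 (SD, n = 3), against 0.04 for Arntl minus Dbp.

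**Figure D3:**
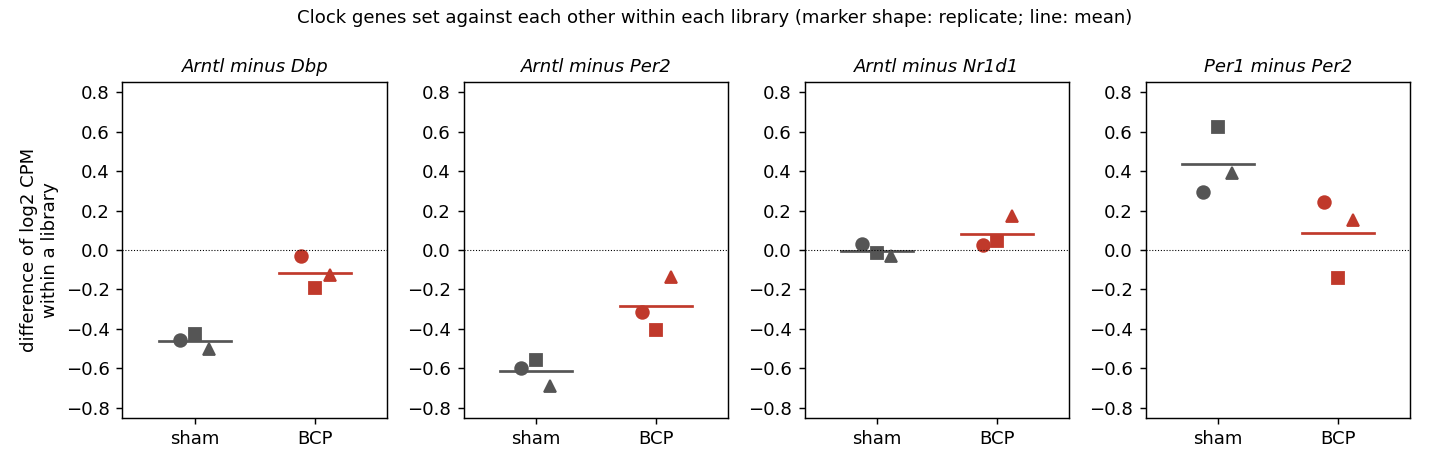
Difference of log2 CPM between pairs of clock genes within each library (vertical axis) for 3 sham and 3 BCP libraries, with marker shape for the replicate and a line at the mean. Arntl minus Dbp runs from -0.50 to -0.42 in sham and from -0.19 to -0.03 in BCP, while the libraries of Arntl minus Nr1d1 overlap.

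Levels between genes were compared in the deposited FPKM, which divide by gene length. In sham the order was Cry2 at 28.2 ± 0.761, Nr1d2 at 18.6 ± 0.564, Per3 at 16.5 ± 0.635, Per1 at 15.6 ± 1.2, Dbp at 12.8 ± 0.517, Nr1d1 at 11.9 ± 0.165, Arntl at 10.2 ± 0.245, Clock at 8.46 ± 0.519, Per2 at 8.06 ± 0.444 and Cry1 at 7.88 ± 0.484 FPKM (SD, n = 3 each). Per3 and Per1, Clock and Per2, and Per2 and Cry1 overlapped in sham, and the other neighbours in this order did not. Cry2 was highest in BCP too, at 24.8 ± 1.66 FPKM. Per1 left its place beside Per3 in BCP, with 10.7 ± 1.12 FPKM against 14.8 ± 1.11 FPKM, and lay with Dbp at 11.1 ± 0.742 FPKM, whose range it overlapped. In FPKM all BCP libraries were below all sham libraries for 4 clock genes, Per1, Per3, Cry2 and Dbp, and above them for Arntl.

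Other proteins set the pace and strength of the loop, and 19 genes of a list of such clock regulators were tested. Of these 4 were lower, 3 were higher and 12 did not pass, where 12.1% of all genes were lower and 15.8% higher. The median log2 fold change was -0.02 against -0.01 for all genes. Without BCP replicate 2, 4 of the 19 passed. Npas2, a paralogue of Clock that can take its place beside ARNTL, had 32.9, 30.9 and 32.6 CPM in sham and 25.8, 22.3 and 24.2 CPM in BCP. The groups were far apart and the log2 fold change was -0.42 (SE 0.09, edgeR adjusted p = 0.00104). Npas2 passed in all 14 alternatives.

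Bhlhe40, which encodes DEC1, a repressor that competes for E-boxes, had 41.2, 38.7 and 41.6 CPM in sham and 58.4, 63.0 and 57.0 CPM in BCP. It rose by a log2 fold change of 0.56 (SE 0.07) and passed in all 14 alternatives, whereas its paralogue Bhlhe41 had a log2 fold change of 0.08 (SE 0.09, edgeR adjusted p = 0.564). Nampt, the rate-limiting enzyme of NAD salvage and a target of the clock, rose by 0.98 (SE 0.09), from 67.0 ± 6.05 to 132.2 ± 14.3 CPM (SD, n = 3 each). Timeless, a partner of the replication fork whose place in the mammalian clock is less settled, rose by 0.70 (SE 0.16, edgeR adjusted p = 0.00278).

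Tef, a PAR bZIP factor that acts on D-boxes like DBP, had a log2 fold change of -0.17 (SE 0.05, edgeR adjusted p = 0.0170). The Tef call was lost without sham replicate 1 (adjusted p = 0.0662), BCP replicate 1 (0.0577) or BCP replicate 2 (0.0735), and also with the likelihood ratio test (0.0799), library size scaling (0.0729) and limma on FPKM (0.119). Usp2, a deubiquitinase with a clock-driven transcript, had -0.40 (SE 0.14, edgeR adjusted p = 0.0357). The Usp2 call was lost without sham replicate 2 (0.0921), sham replicate 3 (0.112), BCP replicate 1 (0.0855) or BCP replicate 2 (0.157), and also with DESeq2 (0.0913), library size scaling (0.0637) and limma on FPKM (0.0749). It passed in 6 of 14 alternatives. Btrc, a subunit of the ligase that marks PER proteins for decay, had -0.14 (SE 0.05, edgeR adjusted p = 0.0389) and passed in 4 of 14 alternatives. The Btrc call was lost without sham replicate 1 (0.0798), sham replicate 2 (0.0614), sham replicate 3 (0.102), BCP replicate 2 (0.140) or BCP replicate 3 (0.135).

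Hlf, the remaining PAR bZIP gene, had 8.39, 7.68 and 10.8 CPM in sham and 7.36, 6.36 and 8.63 CPM in BCP, with a log2 fold change of -0.27 (SE 0.17) that did not pass (edgeR adjusted p = 0.271). The Hlf value was -0.11 without sham replicate 3 and -0.16 without BCP replicate 2. Nfil3, the repressor that shares their D-boxes, had -0.12 (SE 0.12, edgeR adjusted p = 0.50), and between -0.23 without BCP replicate 3 and -0.06 without BCP replicate 1. Ciart, also a repressor of the activating pair and strongly rhythmic in many tissues, had 6.86, 7.96 and 5.88 CPM in sham and 9.22, 7.22 and 5.68 CPM in BCP. Its groups overlapped, and its log2 fold change of 0.09 (SE 0.19, edgeR adjusted p = 0.773) turned to -0.09 without BCP replicate 1 and to -0.02 without sham replicate 3.

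Of 11 rows tested for a list of clock-controlled outputs, 3 were lower and 1 higher, where 12.1% of all genes were lower and 15.8% higher, and the median log2 fold change was -0.09. Pdk4, a kinase that shuts off pyruvate dehydrogenase, had 27.1, 29.0 and 29.3 CPM in sham and 18.6, 23.1 and 19.2 CPM in BCP, with a log2 fold change of -0.49 (SE 0.10, edgeR adjusted p = 0.000768). Tsc22d3, which encodes the glucocorticoid-induced protein GILZ, had 140.3, 145.6 and 135.5 CPM in sham and 129.3, 117.6 and 113.6 CPM in BCP, with -0.23 (SE 0.06, edgeR adjusted p = 0.00393). Both were without overlap and passed in all 14 alternatives. The other called genes of this list were Usp2 and Nampt, given above, and a second row named Tsc22d3, with 0.929 to 2.37 CPM, did not pass.

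Because Per1 also answers to glucocorticoids, 18 rows of a list of glucocorticoid targets were read, Per1 included. Of these 6 were lower, 5 were higher and 7 did not pass, where 12.1% of all genes were lower and 15.8% higher, and the median log2 fold change was -0.14. The lower genes beside Per1, Tsc22d3 and Pdk4 were Ddit4, an inhibitor of mTORC1, with -0.45 (SE 0.08, edgeR adjusted p = 0.000137), Zbtb16, a zinc finger repressor, with -0.70 (SE 0.17, edgeR adjusted p = 0.0306), and Klf9 with -0.20 (SE 0.07, edgeR adjusted p = 0.0276). Zbtb16 had 50.6, 73.3 and 70.8 CPM in sham and 45.5, 35.8 and 38.6 CPM in BCP, and its call was lost without sham replicate 2 (adjusted p = 0.0558), sham replicate 3 (0.0634), BCP replicate 2 (0.109) or BCP replicate 3 (0.136) and with no filter on low counts (0.0601). The Klf9 call was lost without sham replicate 1 (0.0579), sham replicate 2 (0.0678), sham replicate 3 (0.0880), BCP replicate 2 (0.196, log2 fold change -0.12) or BCP replicate 3 (0.0603), and it passed in 6 of 14 alternatives.

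The higher genes were metallothioneins and Nfkbia, the inhibitor of NF-kappa-B. Mt2A had a log2 fold change of 2.06 (SE 0.18, edgeR adjusted p = 0.000410), Mt1m of 1.69 (SE 0.15) and the more abundant of 2 rows named Mt1 of 1.86 (SE 0.16). Metallothioneins are a family of near-identical genes, so the split of reads between their rows is uncertain. Nfkbia had 0.54 (SE 0.09, edgeR adjusted p = 0.000101). Fkbp5, a chaperone cofactor widely used as a readout of the glucocorticoid receptor, had 39.7, 39.3 and 32.6 CPM in sham and 37.5, 37.7 and 31.5 CPM in BCP. Its groups overlapped, and its log2 fold change was -0.06 (SE 0.09, edgeR adjusted p = 0.672), or 0.02 without BCP replicate 3. Called rows of the list went in both directions. Whether glucocorticoids had a part in the level of Per1 was not tested.

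**Figure D4:**
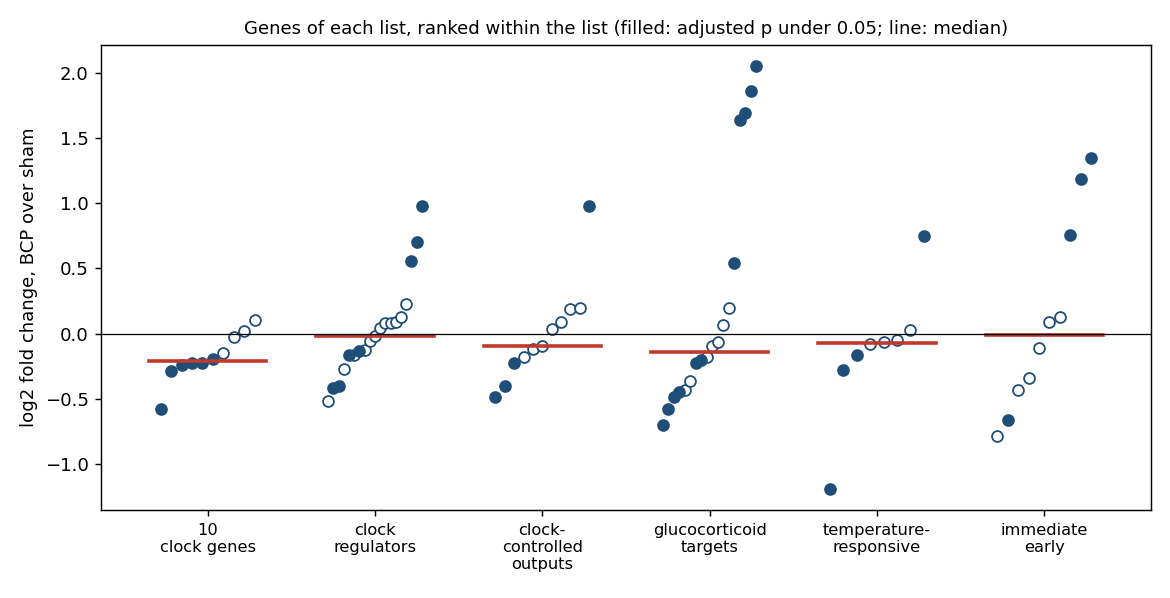
Log2 fold change of BCP over sham (vertical axis) of each tested row in the 10 clock genes and in lists of clock regulators, clock-controlled outputs, glucocorticoid targets, temperature-responsive and immediate early genes, ranked within the list, with filled circles for an edgeR adjusted p under 0.05 and a red line at the median. The median is -0.21 for the clock genes and between -0.14 and -0.01 for the other lists.

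The deposited annotation gave a broader set. The KEGG term circadian rhythm held 28 tested rows, 8 of them clock genes described above. Of the other 20 rows 2 were lower and 2 higher, 20% in all, with a median log2 fold change of -0.01. The lower pair was Npas2 and Btrc, and the higher pair was Prkab1, a subunit of AMP kinase, with 0.31, and Creb1, with 0.28, both named after their values were seen. Prkab1 did not pass without sham replicate 3 (adjusted p = 0.0548) or BCP replicate 2 (0.0637), and Creb1 passed in 1 of the 6 analyses that left out a library, the one without sham replicate 3. The GO term circadian rhythm held 144 tested rows with all 10 clock genes among them, and of its 134 other rows 17 were lower and 29 higher (34.3%), with a median of 0.05. The share called in both terms without the clock genes is read against the background of 27.9%.

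Cell type markers moved between the groups at the same time. Of 7 microglial markers 5 were higher, and their summed level was 182 to 237 CPM in sham and 544 to 656 CPM in BCP. All 5 T cell markers were higher, from 0.140 to 0.458 CPM summed in sham, where Cd3d had no count, to 15.7 to 24.2 CPM in BCP. All 5 oligodendrocyte markers were lower, from 36830 to 41980 CPM in sham to 26270 to 29420 CPM in BCP. Of 5 neuronal markers 3 were lower (3160 to 3315 against 2870 to 3154 CPM), as were 3 of 5 markers of spinal neurons (846 to 976 against 782 to 850 CPM).

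Of 5 astrocyte markers 1 was higher and 1 lower, with 3384 to 3666 CPM summed in sham and 5339 to 7072 CPM in BCP. The highest sum was that of BCP replicate 1, where Aqp4 had 2415 CPM against 360.0 and 361.6 CPM in the other BCP libraries, and the marker that was higher was Gfap (2163 to 2469 against 3729 to 4440 CPM). The 2 red blood cell genes tested were both higher (23.1 to 24.8 against 54.7 to 69.1 CPM). None of 4 endothelial, 4 meningeal or fibroblast and 1 skeletal muscle markers tested passed. The part of any of these shifts in the levels of Per1, Per2, Per3, Cry1, Cry2 and Dbp was not tested. The markers of oligodendrocytes, neurons and spinal neurons, including Chat and Hoxc10, were all detected in every library.

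The genes whose pattern over the 6 libraries was most like that of a clock gene were sought among 14898 other tested genes, by the root mean square difference of log2 CPM after centring each gene on its own mean. For Arntl these were Cgrrf1 (0.0166), Npepps (0.0171) and Papola (0.0174). For Per2 they were Pla2g4e (0.0291), Lmln (0.0324) and Mxi1 (0.0327). For Dbp they were Fam84a (0.0298), St6galnac3 (0.0305) and Sst (0.0309), the last of which encodes somatostatin and had 40.0, 37.0 and 40.5 CPM in sham and 31.4, 33.2 and 32.9 CPM in BCP. None of these 9 genes is on the lists of clock regulators or outputs. The root mean square of each clock gene about its own mean was 0.056 for Arntl, 0.144 for Per2 and 0.136 for Dbp. Arntl varied least, so its smaller distances do not mean closer matches.

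The series also measured lncRNA transcripts, and 25 of them overlapped a clock gene or lay within 10 kb of one, at every clock gene except Nr1d2. Of these 13 overlapped the gene itself and 15 were tested. None had an adjusted p under 0.05 by edgeR, where 1.97% of 12157 lncRNAs tested did, and none had an unadjusted p under 0.05 or passed with DESeq2. The smallest adjusted p was 0.385, and log2 fold changes were between -0.71 and 0.51. In simulated lncRNA counts edgeR recovered 0% of planted log2 changes of 0.5 and 40% of those of 1.5. The absence of calls therefore does not show that these lncRNAs were unchanged. Without sham replicate 3, 1 transcript that overlaps Cry2 passed, NONRATT019474.2, with counts of 17, 23 and 1 in sham and 1, 1 and 1 in BCP (log2 fold change -4.07, adjusted p = 0.0315). It was not tested with all libraries and is named after its values were seen. The use of strand in the counting is not given in the sources used here, so reads of overlapping transcripts and of Cry2 cannot be told apart.

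The calls for the clock genes differed in how much they depended on single libraries and on the test. Per1 and Cry2 passed in each of the 6 analyses that left out a library, Per3 in 4 and Per2, Cry1 and Dbp in 2 each. In each alternative the log2 fold changes of the 6 called genes stayed below 0.

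**Figure D5:**
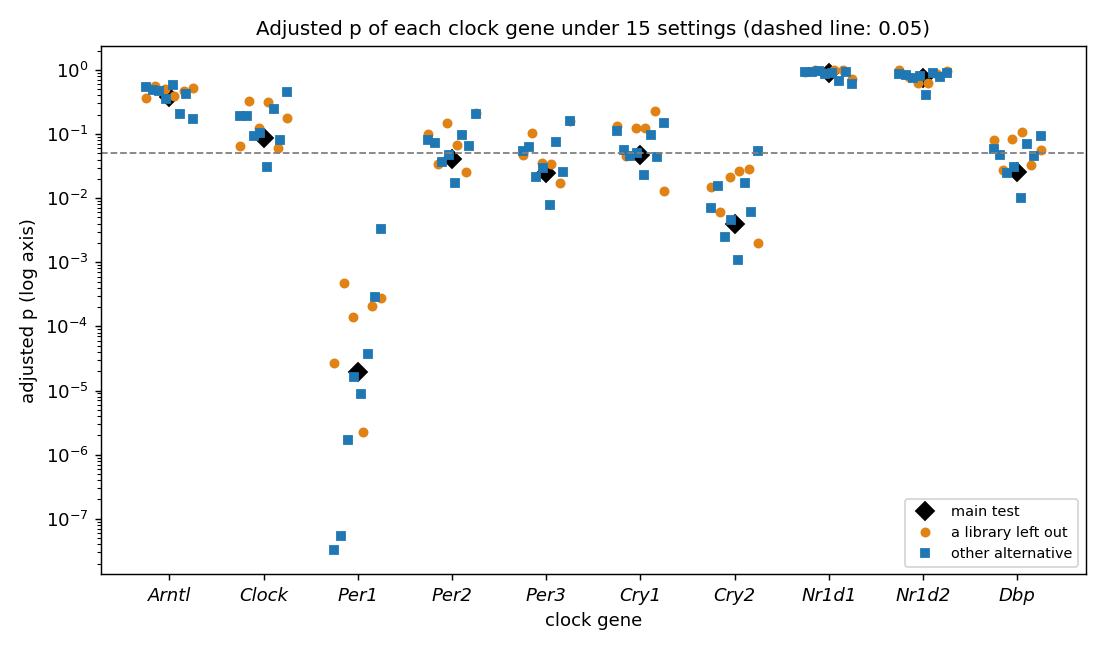
Adjusted p (vertical log axis) of each clock gene with all libraries by edgeR's quasi-likelihood test (black diamond), with 1 library left out (orange circles) and in the other alternatives (blue squares), with a dashed line at 0.05. Every point of Per1 lies below the line. Those of Clock, Per2, Per3, Cry1, Cry2 and Dbp lie on both sides of it, and those of Arntl, Nr1d1 and Nr1d2 lie above it.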

How the data were processed

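The libraries keep the strand and lack ribosomal RNA, and were grouped from the labels into 3 sham and 3 BCP libraries. Per the submitters' processing notes and the study's methods, reads were mapped to Rnor_6.0 with HISAT2 2.0.4 and quantified with StringTie 1.3.0; which tool counted the reads, and how it treated strand and reads with several locations, is not given in the sources used here. The authors deposited read counts, not normalized, per gene and per lncRNA, and beside them FPKM, which the authors divided by gene length and library depth.

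The counts were tested with edgeR 4.0.16 (R 4.3.3) over all 6 libraries, with TMM factors, filterByExpr, a robust quasi-likelihood fit on condition alone and Benjamini-Hochberg adjustment over 14908 genes, lncRNAs separately. SE is the log2 fold change divided by the root of its F. The filter left out 5737 genes with counts. The script was tested on simulated data. In simulated gene counts edgeR recovered 59% of planted log2 changes of 0.5 and 100% of those of 1.5. Smaller changes were not planted, so clock genes that did not pass are not shown to be unchanged. The alternatives were DESeq2 1.42.0, edgeR's likelihood ratio test, no filter, a minimum of 10 counts in each library, scaling by upper quartile or by library size, the replicate number as a block, limma 3.58.1 on log2(FPKM + 1) and each library left out, 14 in all. An exact permutation test of 3 against 3 libraries cannot go below 0.1 and was not used. Log2 CPM in the differences within a library had a prior count of 2. Promoters are RefSeq's (GRCr8), matched by symbol, with Arntl listed as Bmal1; their coordinates are not those of the counts. Figures were drawn with matplotlib 3.10.9.

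The clock genes, the lists and the tests were chosen with earlier results of these data known. The text names the 10 clock genes, of each list the genes called, up to 6 by p, with Fkbp5, Tsc22d3, Cirbp, Rbm3, Ciart, Tef, Hlf, Nfil3 and Bhlhe41 whatever their p, and the 3 genes nearest in pattern to Arntl, Per2 and Dbp; Btrc, Klf9, Zbtb16, Prkab1, Creb1 and Fos are named beside these after their values were seen. A tested gene of the clock regulator list is counted but not otherwise reported here.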

Additional observations from a re-analysis of the deposited data

How the results depend on the processing

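The alternatives bore on the called clock genes other than Per1 and on the counts. With DESeq2 2 clock genes were called, with the likelihood ratio test 3, with library size scaling 2 and with limma on FPKM 1, against 6, and leaving out a library gave 3 to 5. By DESeq2 the log2 fold changes that no longer passed were -0.22 for Per2, -0.19 for Per3, -0.29 for Cry1 and -0.24 for Dbp. By the likelihood ratio test they were -0.23 for Per2, -0.20 for Per3 and -0.29 for Cry1. With library size scaling they were -0.19 for Per2, -0.16 for Per3, -0.25 for Cry1 and -0.20 for Dbp. With limma on FPKM they were -0.17 for Per2, -0.15 for Per3, -0.22 for Cry1, -0.18 for Cry2 and -0.19 for Dbp, on a log2(FPKM + 1) scale that understates changes of low genes. With at least 10 counts in every library Cry1 did not pass, at -0.28, and with upper quartile scaling Clock passed, at -0.18. Library size and upper quartile scaling moved the median of all genes from -0.01 to 0.03 and -0.05. Leaving out a library gave -0.29 to -0.16 for Per2, -0.24 to -0.13 for Per3, -0.40 to -0.21 for Cry1 and -0.28 to -0.19 for Dbp. Nr1d1 turned to -0.019 with upper quartile scaling, and Nr1d2 to 0.013 with library size scaling and to 0.013 with limma on FPKM. Fkbp5 turned to 0.017 without BCP replicate 3, from a lowest value of -0.15. Ciart turned to -0.017 without sham replicate 3 and to -0.087 without BCP replicate 1, and reached 0.25 without BCP replicate 3. Fos turned to -0.017 without BCP replicate 1 and reached 0.17 without BCP replicate 2. Of the clock regulators 7 were called, 4 with library size scaling, 4 with limma on FPKM and 4 to 6 with a library left out, the 4 being without BCP replicate 2. The lncRNAs near clock genes called were 0 to 1 with a library left out. Genes past an adjusted p of 0.05 and a 2-fold change were 962, and 626 with limma on FPKM. The cause of these shifts was not tested.

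With the replicate number as a block 5 clock genes were called, and Per2 did not pass, at -0.23. Usp2, Btrc and Zbtb16 did not pass with the block either (adjusted p = 0.0517, 0.0629 and 0.142). Deviations of libraries with the same number correlated at -0.105, 0.0439 and -0.0353, and those with different numbers at -0.119 to 0.139. Whether libraries with the same number were handled together is not given in the sources used here. These correlations cannot decide it. Over all alternatives, the 10 clock genes gave 104 values on the same side of the threshold and in the same direction, 32 that no longer passed, 1 that newly passed and 3 that changed sign. The lowest clock gene count in a library was 217, for Cry1 in BCP replicate 1.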

Other observations

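Body temperature and its daily rhythm also act on transcripts. Of 8 tested rows of a list of temperature-responsive genes, 3 were lower and 1 higher, where 12.1% of all genes were lower and 15.8% higher. The median log2 fold change was -0.07. The list had 10 rows, and those left out of the test, both of heat shock genes, had no count in any library. Rbm3, a cold-induced RNA-binding protein, had 35.8, 36.0 and 38.0 CPM in sham and 55.2, 63.6 and 66.0 CPM in BCP and rose by 0.75 on the log2 scale (SE 0.08, edgeR adjusted p = 2.94e-07). Cirbp, the related cold-induced protein whose level follows the daily rhythm of body temperature, had 38.5, 39.0 and 37.5 CPM in sham and 34.6, 36.7 and 38.8 CPM in BCP, with -0.06 (SE 0.08, edgeR adjusted p = 0.599), or -0.02 without BCP replicate 1 and -0.11 without BCP replicate 3. The heat shock genes Hspa1b (-1.19, SE 0.22), Dnajb1 (-0.28, SE 0.07) and Hsph1 (-0.16, SE 0.04) were lower, and all 3 had BCP libraries below all sham libraries. Hsph1 did not pass with the likelihood ratio test (adjusted p = 0.0740) or with limma on FPKM (0.0590).

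Of 10 tested immediate early genes, which answer to neuronal activity and to handling within minutes, 1 was lower and 3 higher, against the same shares of all genes, and the median was -0.01. Arc, a synaptic protein gene, had 15, 15.2 and 12.4 CPM in sham and 9.30, 9.43 and 8.10 CPM in BCP (log2 fold change -0.67, SE 0.14, edgeR adjusted p = 0.000810). Junb had 7.86, 8.94 and 7.30 CPM in sham and 17.8, 17.4 and 19.6 CPM in BCP (1.19, SE 0.13), and Btg2 rose by 0.76 (SE 0.16). Egr2 had at most 1.67 CPM in any library (1.35, SE 0.46, edgeR adjusted p = 0.0315), and its call was lost without sham replicate 2 (adjusted p = 0.163, log2 fold change 0.89), sham replicate 3 (0.0613), BCP replicate 2 (0.0724) or BCP replicate 3 (0.125). Fos, the usual marker of acute activity, had 14.1, 14.5 and 14.9 CPM in sham and 17.9, 13.7 and 14.8 CPM in BCP and did not pass (0.09, SE 0.12, or -0.02 without BCP replicate 1).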
